A study of Mus musculus with 8 samples.

Results

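The dystrophin glycoprotein complex was followed through 8 genes in muscle stem cells (MuSCs) of aged mice: Dmd, Utrn, Dag1, Sgca, Sgcb, Sgcd, Dtna and Sspn. These genes were chosen by name as parts of the complex, with earlier results of these data known. All were present among the 55487 genes of the count table. The cells came from wild-type C57BL/6JRj male mice labelled as old, for which the study's methods on MuSC culture give an age of 23 to 24 months. MuSCs were sorted by FACS as CD31-, CD11b-, CD45-, Sca1-, CD34+ and integrin α7+, and grown for 72 hours in growth medium. They received either the combination of nicotinamide and pyridoxine (NAM/PN, labelled 1 mM) or the vehicle (1% DMSO). The labels describe 8 mice in 4 pools of 2 mice, and each pool was cultured under both conditions, giving 4 libraries per condition whose pool numbers mark the same mice. A library therefore averages 2 animals and holds cells that were dividing and maturing in a dish, not stem cells at rest in muscle.

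Dystrophin, the product of Dmd, and its relative utrophin, the product of Utrn, link the actin cytoskeleton to dystroglycan, a laminin receptor in the plasma membrane encoded by Dag1. The sarcoglycans (Sgca, Sgcb, Sgcd) and sarcospan (Sspn) form a subcomplex in the membrane that sits beside dystroglycan, and α-dystrobrevin (Dtna) binds dystrophin and the syntrophins on the inner side. In muscle fibers the complex protects the membrane during contraction, and loss of its members causes muscular dystrophies. In MuSCs, dystrophin has been linked to cell polarity, and α-sarcoglycan is known as a gene of differentiating and mature striated muscle.

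RNA was read by a 3′ tag method, in which a transcript yields reads near its 3′ end whatever its length, so the values are not scaled by length. Total counts per library ranged from 6472484 to 10163101. Values are given as CPM, counts scaled to library size with edgeR's TMM factors, and a count of 0 in 1 library allows up to 3 counts, which is 0.28 to 0.457 CPM depending on depth. These limits cover counting error only, because the reads carried no stated molecular identifiers. Of the table's genes, 12060 had enough counts to be tested between NAM/PN and vehicle with edgeR (quasi-likelihood, Benjamini-Hochberg adjusted over these genes), and a gene was called at an adjusted p under 0.05. MuSC identity was visible in both conditions: Pax7, the transcription factor that marks these cells, averaged 196 ± 36.2 CPM in the vehicle libraries and 173 ± 50.3 CPM in the NAM/PN libraries (SD, n = 4), and 7 stem and progenitor markers had log2 fold changes between -0.68 and -0.05.

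Of the 8 complex genes, 7 had enough counts to be tested, and Sgca and Dag1 were lower with NAM/PN. Sgca fell 4.98-fold and Dag1 fell 1.97-fold, whereas 0 members were called higher by edgeR, DESeq2 or voom (0 also at an unadjusted p under 0.05 in edgeR). Dmd, Utrn, Sgcb and Dtna had negative fold changes that did not pass the adjusted threshold, Sspn had no clear direction, and Sgcd was not detected. Among all tested genes, 1.28% were called in either direction (154 genes), 0.995% were called lower and 0.282% were called higher. The median log2 fold change was -0.98 over the 7 members tested and -0.82 over the 5 that were not called, beside -0.0022 over all tested genes, of which 50.2% were negative. At an unadjusted p under 0.05, 5 members were lower, against 5.32% of all tested genes. In Dag1 and Sgca all NAM/PN libraries lay below all vehicle libraries, a separation in this direction found in 4.42% of tested genes. The members were chosen with earlier results known, so these comparisons with all tested genes are descriptions and not tests.

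**Figure D1:**
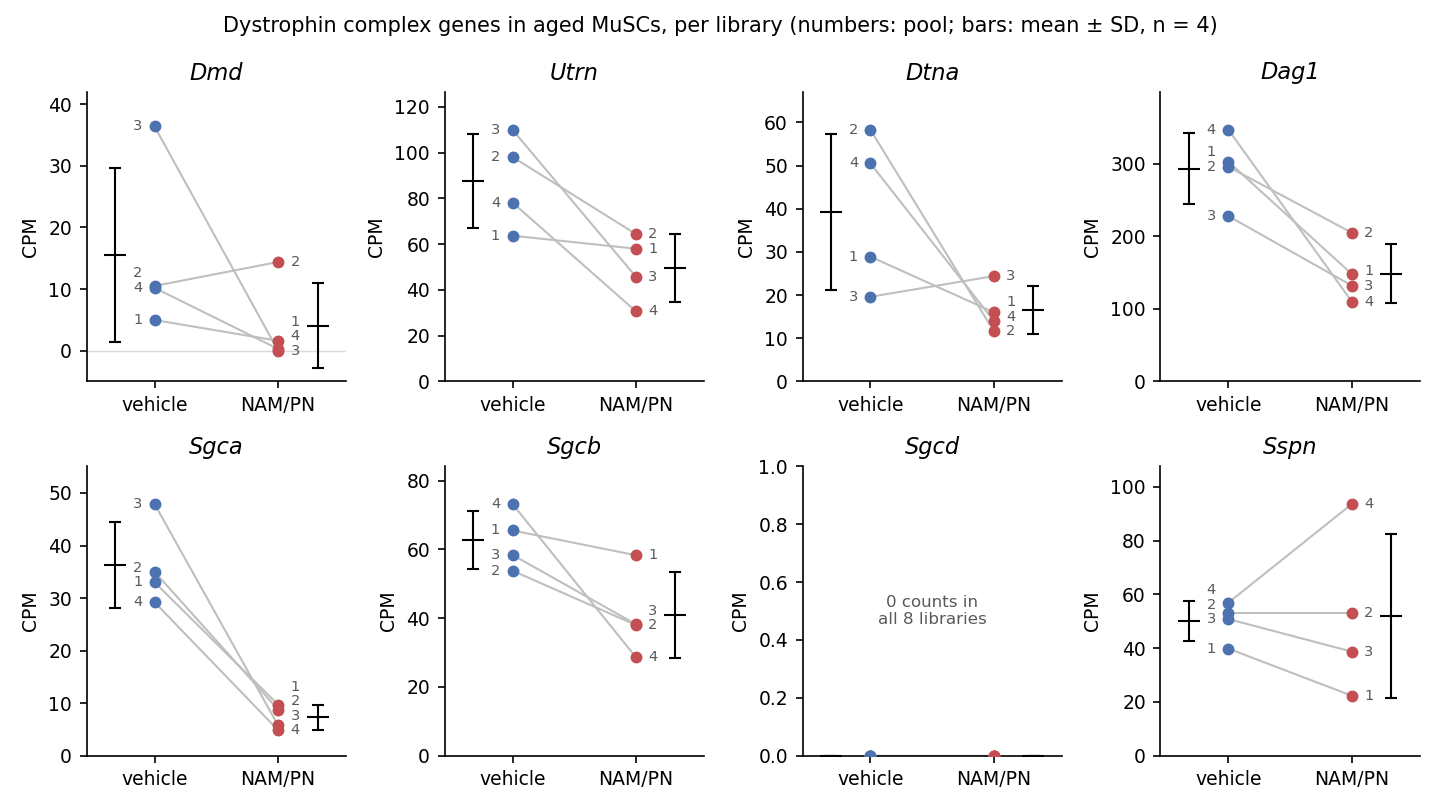
Level of each complex gene in every library, in CPM, with vehicle on the left and NAM/PN on the right of each panel; numbers and grey lines mark the pool, and black bars give mean ± SD of 4 libraries. Sgca and Dag1 separate without overlap (29.2 to 47.9 against 4.86 to 9.72 CPM, and 228 to 347 against 110 to 205 CPM), Dmd varies widely within each condition, Sspn rises in pool 4 alone, and Sgcd has no counts.

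The start regions of 3 members are printed here from RefSeq (GRCm38.p6), as 250 bases before to 50 bases after the annotated start, read 5′ to 3′ on the gene's strand. Dmd is shown with both of its starts because the counts merge them, and Dag1 and Sgca because they were called. Capitals mark E-boxes (CANNTG, the sequence bound by myogenic basic helix-loop-helix factors), MEF2 motifs and CArG motifs found on either strand. A match is a description of the letters and does not show binding.
Dmd, first start, X:82948620-82948919, plus strand: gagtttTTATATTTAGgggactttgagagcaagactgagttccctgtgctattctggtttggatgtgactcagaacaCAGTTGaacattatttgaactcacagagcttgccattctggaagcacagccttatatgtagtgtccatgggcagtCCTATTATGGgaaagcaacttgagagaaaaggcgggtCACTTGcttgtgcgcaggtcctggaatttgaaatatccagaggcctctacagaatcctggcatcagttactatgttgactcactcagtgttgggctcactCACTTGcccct
Dmd, second start, X:85048045-85048344, plus strand: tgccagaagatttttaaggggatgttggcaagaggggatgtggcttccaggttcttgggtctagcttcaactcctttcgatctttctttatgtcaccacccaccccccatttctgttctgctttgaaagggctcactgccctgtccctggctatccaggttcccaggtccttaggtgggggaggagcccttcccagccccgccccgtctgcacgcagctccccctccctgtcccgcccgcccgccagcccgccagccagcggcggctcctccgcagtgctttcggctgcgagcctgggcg
Dag1, 9:108263909-108264208, minus strand: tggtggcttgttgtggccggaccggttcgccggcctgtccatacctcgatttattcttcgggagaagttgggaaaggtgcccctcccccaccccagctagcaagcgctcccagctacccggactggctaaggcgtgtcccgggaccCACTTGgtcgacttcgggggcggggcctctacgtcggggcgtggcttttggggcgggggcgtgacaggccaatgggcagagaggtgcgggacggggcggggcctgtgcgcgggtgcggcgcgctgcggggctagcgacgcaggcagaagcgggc
Sgca, 11:94976278-94976577, minus strand: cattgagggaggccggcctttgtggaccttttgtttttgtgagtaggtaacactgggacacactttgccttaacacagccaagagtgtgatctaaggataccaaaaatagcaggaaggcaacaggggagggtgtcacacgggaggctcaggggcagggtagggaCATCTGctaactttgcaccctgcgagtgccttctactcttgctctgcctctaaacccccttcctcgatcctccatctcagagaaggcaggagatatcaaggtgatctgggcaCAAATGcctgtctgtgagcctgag

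The first Dmd start held 3 E-boxes, 1 MEF2 motif and 1 CArG motif, whereas the second held none of them. Sgca held 2 E-boxes and Dag1 held 1, without MEF2 or CArG motifs. A second Dag1 promoter, at 9:108263766-108264065, overlaps the printed one and holds the same E-box and no other of these motifs. Of the members whose promoters are not printed, Utrn, which was not called, held 7 E-boxes, Sgcd held 2, Sgcb held 0, and Sspn held 0 and 1 at its 2 starts. Over all 32851 RefSeq mouse promoters of this length, 72.3% held at least 1 E-box, with a mean of 1.39. MEF2 motifs occurred in 1.86% and CArG motifs in 1.63% of them. The E-box forms CAGCTG (16.3% of all promoters) and CACCTG or CAGGTG (20.2%) did not occur in any of the 10 promoters found for 7 of the members.

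Dmd (ENSMUSG00000045103, X:82948870-85206141, plus strand, GRCm38) encodes dystrophin. GENCODE M21 lists 14 transcripts, of which 3 are protein-coding and use 2 starts. The long coding transcript Dmd-203 has 79 exons and 14910 bases and the short transcript Dmd-201 has 18 exons and 4438 bases. Their starts lie 2099510 bases apart, but their ends only 1102 bases apart, so a 3′ gene count cannot tell full-length dystrophin from the short product.

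With vehicle, Dmd was at 4.97, 10.5, 36.4 and 10.2 CPM in pools 1 to 4, from 42, 85, 295 and 94 counts. With NAM/PN it was at 1.6, 14.4, 0 and 0.28 CPM, from 13, 103, 0 and 3 counts. Dmd was thus lower with NAM/PN in pools 1, 3 and 4 and higher in pool 2, and the conditions overlapped. It had at least 10 counts in all 4 vehicle libraries but in only 2 NAM/PN libraries. The means were 15.5 ± 14.2 and 4.06 ± 6.9 CPM (SD, n = 4). The log2 fold change of -1.94 had a standard error of 1.07 (edgeR quasi-likelihood, Benjamini-Hochberg adjusted p = 0.655). Single libraries moved this value, to -4.59 without NAM/PN 2 and to -1.09 without vehicle 3. In a fit with the pool as replicate block it was -3.26, and the call was the same (adjusted p = 0.44). The spread of Dmd between libraries, given by edgeR as a biological coefficient of variation of 0.974, was above the median of tested genes (0.391), and for the other tested members it was between 0.215 and 0.383. The 0 counts in pool 3 with NAM/PN allow up to 0.457 CPM, against 36.4 CPM in the vehicle library of the same mice, which was the highest of all.

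Utrn (ENSMUSG00000019820, 10:12382188-12869365, minus strand) encodes utrophin, which can take dystrophin's place in the complex. Its level with vehicle was 63.7, 98.1, 110 and 78.2 CPM in pools 1 to 4, and with NAM/PN 58, 64.4, 45.7 and 30.6 CPM. Utrn was lower with NAM/PN in all 4 pools, from 91% of the vehicle level in pool 1 to 39.2% in pool 4, and the conditions overlapped by a small margin. The log2 fold change was -0.82 ± 0.26 (standard error), and the gene was not called (edgeR, unadjusted p = 0.00495, adjusted p = 0.173). Without a filter on low counts it was called, at -0.83 (edgeR adjusted p = 0.0383).

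Dag1 (ENSMUSG00000039952, 9:108204634-108263958, minus strand) encodes both α- and β-dystroglycan from 1 precursor. It was at 303, 296, 228 and 347 CPM with vehicle and at 148, 205, 132 and 110 CPM with NAM/PN in pools 1 to 4. Every NAM/PN library lay below every vehicle library, and within pools the level was between 31.8% and 69.1% of vehicle. The means of 294 ± 49 and 149 ± 40.2 CPM (SD, n = 4) gave a log2 fold change of -0.98 with a standard error of 0.20 (edgeR, adjusted p = 0.014). The call was lost in 7 of the 12 fits that left out a library or a pool: without vehicle 2, vehicle 4, NAM/PN 1 or NAM/PN 3, and without pools 1, 2 or 4 (adjusted p 0.0516 to 0.171), while the fold change stayed between -1.17 and -0.77.

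Among the sarcoglycans, Sgca (ENSMUSG00000001508, 11:94962791-94976327, minus strand) encodes α-sarcoglycan. Its vehicle levels were 33, 35, 47.9 and 29.2 CPM, from 279, 282, 388 and 268 counts, and its NAM/PN levels 9.72, 8.78, 5.79 and 4.86 CPM, from 79, 63, 38 and 52 counts. The conditions were far apart, and the level with NAM/PN was 12.1% to 29.4% of vehicle within pools. The log2 fold change was -2.32 with a standard error of 0.39 (edgeR, adjusted p = 0.00279). The call held in all 19 alternative fits, between -2.53 and -2.06. Markers of differentiating myocytes moved in the same direction as Sgca and Dag1: all 8 had negative fold changes and 6 were called lower (Myog, Mymk, Mymx, Myh3, Acta1 and Tnnt3), and their summed level was 1380 to 2810 with vehicle and 243 to 681 CPM with NAM/PN. Their part in the result was not tested, and in bulk libraries fewer cells of a type and less RNA per cell cannot be told apart.

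Sgcb (ENSMUSG00000029156, 5:73632749-73647790, minus strand) encodes β-sarcoglycan, which is also made outside striated muscle. It was at 65.5, 53.8, 58.4 and 73.2 CPM with vehicle and at 58.3, 38, 38.2 and 28.6 CPM with NAM/PN. Each pool was lower with NAM/PN, by little in pool 1 (89.1% of vehicle) and most in pool 4 (39%), and the NAM/PN 1 library lay within the range of vehicle. The log2 fold change of -0.62 ± 0.26 (standard error) was not called (edgeR, unadjusted p = 0.0257, adjusted p = 0.411).

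Sgcd (ENSMUSG00000020354, 11:46896253-47988969, minus strand), which encodes δ-sarcoglycan, had 0 counts in all 8 libraries. Over their 66581729 counts this allows a level of up to 0.0451 CPM, provided that the counted annotation holds the 3′ ends its transcripts use, which was not tested. In the whole table, 65.3% of genes had no count in any library. Reads outside the counted annotation were not analysed here.

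Sspn (ENSMUSG00000030255, 6:145931641-145965223, plus strand) encodes sarcospan, the small membrane protein of the sarcoglycan subcomplex. It was at 39.8, 53.2, 50.8 and 56.9 CPM with vehicle and at 22.3, 53.2, 38.7 and 93.6 CPM with NAM/PN. Pools 1 and 3 were lower with NAM/PN, pool 2 was level and pool 4 was higher. The log2 fold change was 0.05 with a standard error of 0.33 (edgeR, adjusted p = 0.992), and it was -0.40 without NAM/PN 4 and -0.12 with the pool as replicate block.

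Dtna (ENSMUSG00000024302, chromosome 18, 23415135 to 23659715, plus strand) encodes α-dystrobrevin. It was at 28.9, 58.3, 19.6 and 50.5 CPM with vehicle and at 16, 11.6, 24.4 and 14 CPM with NAM/PN. Pools 1, 2 and 4 were lower with NAM/PN and pool 3, the lowest of the vehicle libraries, was slightly higher. The log2 fold change was -1.26 ± 0.38 (standard error), and the gene was not called (edgeR, unadjusted p = 0.00396, adjusted p = 0.15). It was called without both libraries of pool 3, at -1.73 (adjusted p = 0.0426), and without a filter on low counts, at -1.27 (adjusted p = 0.0421).

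**Figure D2:**
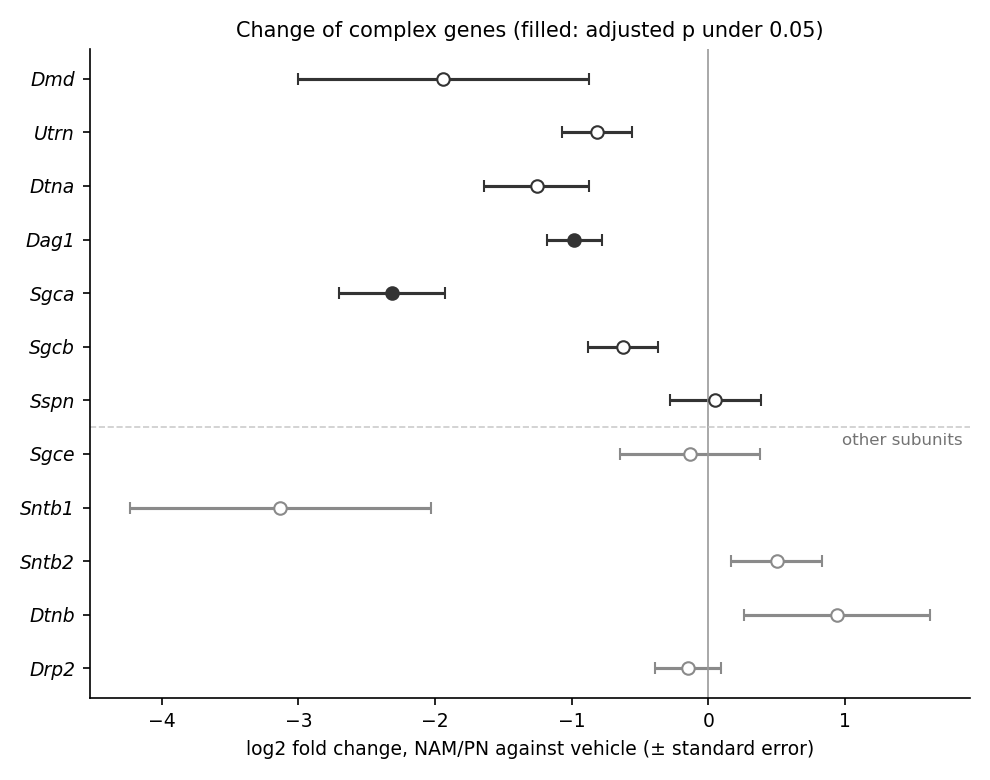
Log2 fold change of NAM/PN against vehicle with its standard error for the 7 tested members (black) and 5 other subunits of the complex (grey); filled points had an adjusted p under 0.05 in edgeR. Sgca at -2.32 and Dag1 at -0.98 are the filled points, and Sntb1 and Dmd have the widest bars.

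Ratios within a library were used to ask whether members changed unequally. They rest on the same libraries as the fold changes above, in which the unequal sizes were already visible, and are not independent of them. Ratios were taken as differences of log2(CPM + 0.5) and tested by exact permutation, two-sided, over all 70 assignments of 4 and 4 libraries, whose smallest possible p is 0.0286, with adjustment over the 3 ratios computed. Sgca relative to Dag1 was -3.01 ± 0.55 with vehicle and -4.28 ± 0.28 with NAM/PN (SD, n = 4). It was lower in 4 of 4 pools, by 1.27 on the log2 scale on average (exact p = 0.0286, adjusted p = 0.0429). Sgca relative to Sgcb was -0.80 ± 0.45 with vehicle and -2.41 ± 0.25 with NAM/PN, lower in 4 of 4 pools (difference -1.61, exact p = 0.0286, adjusted p = 0.0429). Dmd relative to Utrn was -2.79 ± 0.86 with vehicle and -4.69 ± 1.86 with NAM/PN, lower in 3 of 4 pools, and the difference of -1.90 did not pass (exact p = 0.114, adjusted p = 0.114). With 2 CPM added in place of 0.5 CPM it was -1.002 (exact p = 0.2), since NAM/PN 3 had 0 and NAM/PN 4 had 3 Dmd counts. The call for Sgca and Dag1 was lost without NAM/PN 2, 3 or 4. For Sgca and Sgcb the adjusted p rose to 0.0856 without NAM/PN 3 or 4 although its own exact p stayed at 0.0286, the smallest possible, because the adjustment runs over all 3 ratios. Without NAM/PN 2 the ratio of Dmd to Utrn passed, at -2.76 (exact adjusted p = 0.0429).

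**Figure D3:**
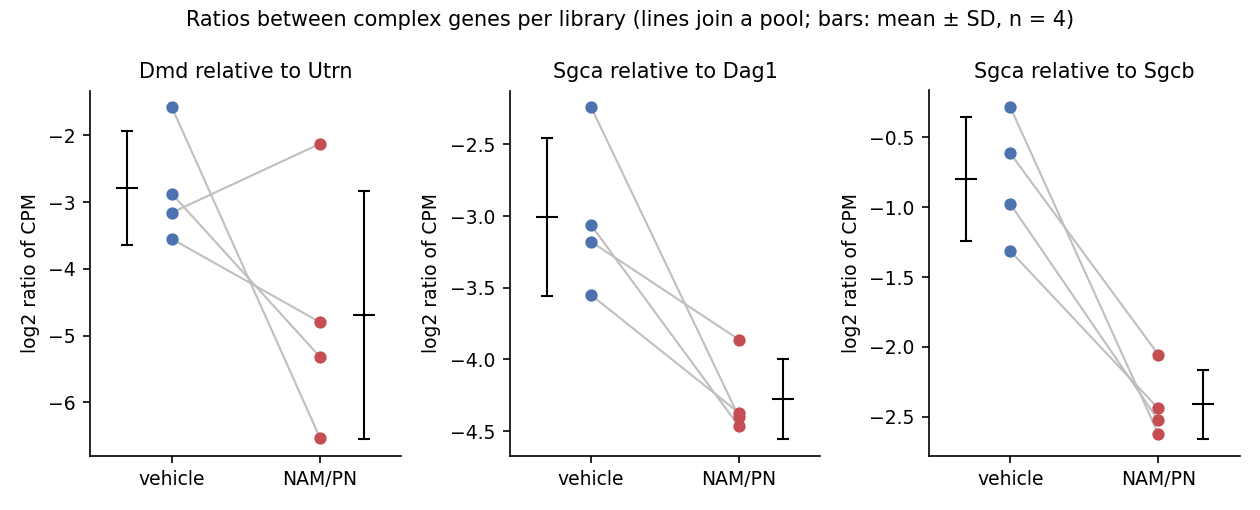
Log2 ratio of CPM (with 0.5 CPM added) between pairs of complex genes in each library, with vehicle in blue and NAM/PN in red; lines join the libraries of a pool and black bars give mean ± SD of 4 libraries. Sgca relative to Dag1 and relative to Sgcb drops in every pool without overlap, whereas Dmd relative to Utrn rises in 1 pool.

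Paired by pool, these ratios cannot reach the threshold, since changes of sign over 4 pools give no p below 0.125. With the replicate block in this form, the differences of -1.27 for Sgca and Dag1 and -1.61 for Sgca and Sgcb had exact p = 0.125 (adjusted p = 0.188).

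A wider list of 62 genes covered the rest of the complex and its surroundings. Of these, 48 had enough counts to be tested, 1 was called lower and 0 were called higher by edgeR (0 also by DESeq2 and voom, and 2, Lamb1 and Agrn, at an unadjusted p under 0.05), and 28 fold changes were negative and 20 positive. The median log2 fold change was -0.11. The gene called was Bgn (ENSMUSG00000031375), which encodes biglycan, a matrix proteoglycan that binds dystroglycan and sarcoglycans. Bgn was at 66, 71, 57.9 and 73.1 CPM with vehicle and at 15.6, 14.4, 3.65 and 12.1 CPM with NAM/PN. All NAM/PN libraries lay below all vehicle libraries, with a log2 fold change of -2.54 (standard error 0.36, edgeR adjusted p = 0.000619).

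Of the 10 other subunits, 7 were tested and 0 were called by edgeR (3 had an unadjusted p under 0.05, among them Sntb1 at 0.0104, and DESeq2 called Sntb1), with a median of -0.15. Drp2, which encodes dystrophin-related protein 2 and had the most counts of this group, was at 59.4 ± 6.52 and 53.6 ± 13.7 CPM. Sntb1, which was picked after its values were seen and encodes β1-syntrophin, was at 7.1 to 18.6 CPM with vehicle and at 0 to 2.51 CPM with NAM/PN. Its libraries separated without overlap but had few counts, between 0 and 171, and it was not called (edgeR adjusted p = 0.264). Sgcz, Sntg1 and Sntg2 had no counts.

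Among 14 cytoplasmic partners, 11 were tested with a median of -0.08, and Plec, which encodes the cytolinker plectin, was at 477 ± 167 and 489 ± 24 CPM. Among 12 matrix ligands of dystroglycan, 9 were tested with a median of -0.20. Of these, 6 fold changes were negative and 3 positive. The laminin chain gene Lamb1 had the most counts of this group, at 99.2 ± 18.7 with vehicle and 146 ± 28.6 CPM with NAM/PN (log2 fold change 0.56, edgeR adjusted p = 0.299). Lamb2, another laminin chain gene, went the other way, at 36.5 ± 4.26 and 14.5 ± 7.76 CPM (log2 fold change -1.34, edgeR adjusted p = 0.144). Of 18 genes for the glycosylation of α-dystroglycan, on which laminin binding depends, 15 were tested, 5 negative and 10 positive, with a median of 0.14. Dpm3, which encodes a subunit of dolichol-phosphate mannose synthase, was at 93.5 ± 23.6 and 102 ± 20.7 CPM. All 6 tested of 8 membrane repair genes had negative fold changes that were small, with a median of -0.12. Anxa2, which encodes annexin A2, was at 741 ± 85.1 and 664 ± 97.2 CPM.

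**Figure D4:**
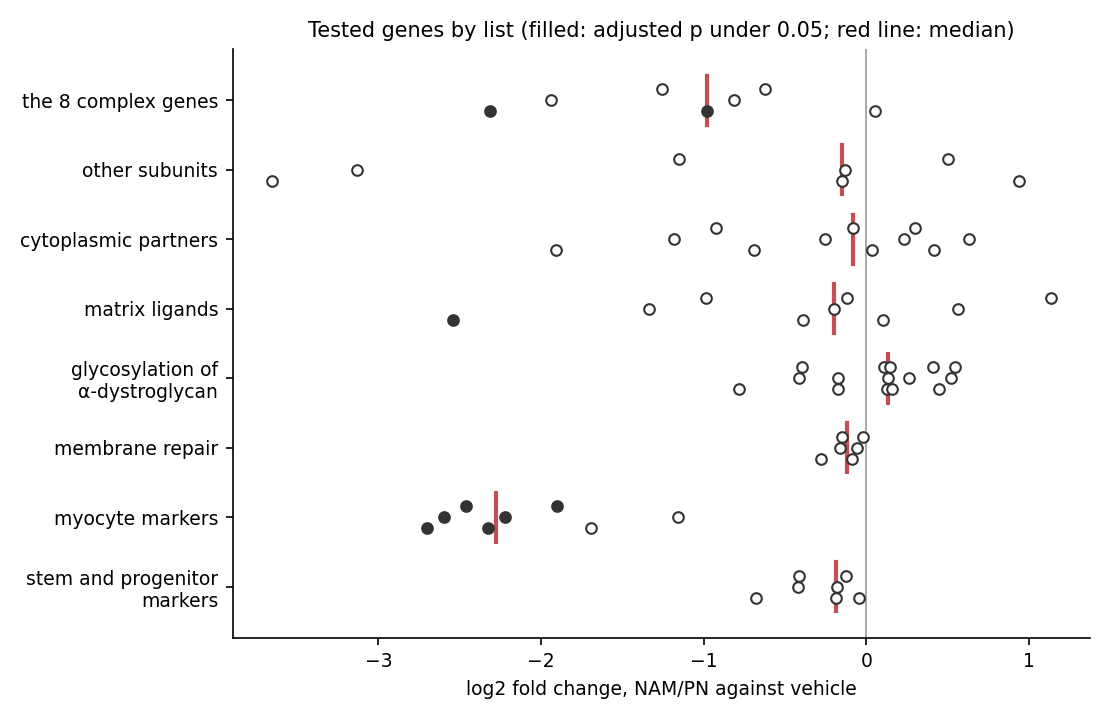
Log2 fold change of NAM/PN against vehicle for each tested gene, by list; filled points had an adjusted p under 0.05 in edgeR and red lines mark the list's median (points are shifted vertically for legibility). The complex genes have a median of -0.98 and the myocyte markers one of -2.27, and the lists of partners, ligands, glycosylation and repair lie near 0.

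Marker genes of other cells were read beside these results. The 8 myocyte markers had a median log2 fold change of -2.27, and Myog, the transcription factor of early differentiation, fell from 929 ± 390 to 199 ± 74.3 CPM (edgeR adjusted p = 0.000232). The 7 stem and progenitor markers summed to 2730 to 3220 with vehicle and 2190 to 2750 CPM with NAM/PN. Of 6 genes listed for fibro-adipogenic cells, 2 were tested and Col3a1 was called lower (log2 fold change -1.17, edgeR adjusted p = 0.00255). This list summed to 225 to 286 and 113 to 157 CPM. Pdgfra and Lum had no counts, Dcn had 2 counts in 1 library, and Cd34, by which the cells were also sorted, was at 104 ± 20.7 and 63.2 ± 28.6 CPM (log2 fold change -0.71, edgeR unadjusted p = 0.016). Ly6a, which encodes Sca1 and against which the cells were sorted, had 0 counts in 5 of 8 libraries and reached 5.85 CPM at most. Endothelial markers summed to 0 to 4.68 with vehicle and 0 to 7.25 CPM with NAM/PN, with Emcn and Cldn5 at 0. Immune markers summed to 0.979 to 7.58 and 3.5 to 7.14 CPM, with Ptprc, Adgre1 and Itgam at 0. Mural markers summed to 18.9 to 60.3 and 20.7 to 30.8 CPM, with Myh11 at 0, and Schwann cell markers to 1.61 to 12.4 and 2.83 to 12.6 CPM, with S100b at 0.

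Dmd's variation between libraries was set beside that of 8849 genes whose mean log2 CPM was 3 or more, as Pearson's r of log2 CPM deviations from the condition means over the 8 libraries. The 5 closest, picked as the highest of these 8849 values, were Grina (0.982), Mlec (0.981), Stx7 (0.976), Maf (0.964) and Slc7a11 (0.949). Of the members, Utrn (0.765) and Sgca (0.743) were the most alike to Dmd, Dag1 (0.468) and Sgcb (0.106) less so, Sspn was near 0 (0.000567) and Dtna varied in the opposite sense (-0.554). These values describe 8 libraries that differ in depth and in myocyte marker levels, and all genes of a library share both. How many of the 8849 genes reached the members' values was not counted. Dmd's own deviations were largest in NAM/PN 2, NAM/PN 3 and vehicle 3. NAM/PN 3 had 0 Dmd counts, so its log2 value was set by the 0.5 CPM added.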

How the data were processed

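RNA of MuSCs from aged mice was sequenced in 8 libraries (QuantSeq 3′, forward). Per the labels and the file, the authors deposited whole-number counts for each gene with no scaling. The submitters' processing notes name HTSeq 2.16.2 and GRCm38, and the annotation release, strand setting and treatment of reads with several matches are not given in the sources used here. Groups and pools followed the labels. Genes were filtered with filterByExpr (minimum count 10, minimum total count 15), scaled with TMM factors and tested with edgeR 4.0.16 (glmQLFit and glmQLFTest, R 4.3.3) without a block, as the study's methods describe for mouse muscle. The pool number marks the same mice, so it pairs the libraries, although the deviations of paired libraries from their condition means correlated at only -0.0366 to 0.0303. Alternatives were the replicate block, DESeq2 1.42.0, no filter, voomWithQualityWeights with duplicateCorrelation (limma 3.58.1), a robust fit, upper-quartile normalization, thinned counts, a threshold of 0.10, 2 CPM in place of 0.5 CPM added for ratios, and leaving out each library or pool.

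The members and gene lists were chosen with earlier results of these data known. Named genes were the 8 members, genes of the wider list that were called, the gene with the most counts in each sub-list, and the 5 genes most like Dmd. Sntb1, Agrn and Lamb2 were named after their values were seen. Some genes of the lists are not reported here by name. Annotation was GENCODE M21 (55227 identifiers matched). Antisense genes overlapping exons of members had 0 counts, and Gm14769, a pseudogene within a Dmd intron, had 1060. Promoters were RefSeq's for GRCm38.p6, with 1 or more found for 7 of 8 members. Figures were drawn with Python 3.11.15 and matplotlib 3.10.9. In the main fit, p-values rest on the spread between libraries of the same condition, each from a different pool of 2 mice. The fit with the replicate block sets differences between pools aside.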

Additional observations from a re-analysis of the deposited data

Results flagged for a closer look

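Among 22 groups of 4 libraries examined for a library far from the rest, 2 held one, where chance gives about 5%. Dmd with NAM/PN was at 14.4 CPM in NAM/PN 2, and the other NAM/PN libraries were between 0 and 1.6 CPM. The gap took a share of 0.888 of the whole range, above the critical value of 0.829.

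Sgca relative to Dag1 was at -3.86 on the log2 scale in NAM/PN 1, and the other NAM/PN libraries were between -4.47 and -4.37 (share 0.845). All 4 values lay below those of the vehicle libraries.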

How the results depend on the processing

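Sgca kept its call in all 19 alternative fits (adjusted p 2.79e-06 to 0.0473). Dag1 was lower in all of them, and its call was lost only in fits that left out libraries or a pool (fold change -1.17 to -0.77 over these, adjusted p 0.00618 to 0.171). In those fits 1 to 3 members were called. Fits without a library or pool gave -4.74 to -0.68 for Dmd, -1.03 to -0.64 for Utrn, -1.73 to -0.87 for Dtna, -0.85 to -0.40 for Sgcb and -0.40 to 0.30 for Sspn. The Sspn fold change turned negative with the replicate block (-0.12), with voom (-0.33), without vehicle 1 (-0.05), without NAM/PN 4 (-0.40) and without pool 4 (-0.33). Other than in this sign, the replicate block changed no call of a member. It added Actc1 to the myocyte markers called lower (7 of 8).

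With no filter on low counts, 4 members were called, Utrn (-0.83, adjusted p = 0.0383) and Dtna (-1.27, adjusted p = 0.0421) besides Dag1 and Sgca, and 366 of 19244 genes were called in all, against 154 of 12060. On the wider list 2 genes were called with DESeq2 (Sntb1 and Bgn, 289 genes in all), 2 with no filter and 2 with voom (Lamb2 and Bgn in both, 232 genes in all with voom), and 1 in every fit without a library or pool. A threshold of 0.10 called 244 genes in all and no further member or wider list gene. Over the fits without a library or pool, 42 to 177 genes were called in all. The cause of these changes was not tested.

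For the ratios, leaving out 1 library gave -2.76 to -1.29 for Dmd and Utrn (without NAM/PN 2, -2.76, exact adjusted p = 0.0429), -1.45 to -1.01 for Sgca and Dag1 and -1.79 to -1.44 for Sgca and Sgcb, with exact adjusted p up to 0.0856 for both Sgca ratios. With 2 CPM added, the Dmd and Utrn difference was -1.002. With the replicate block the other differences were unchanged at -1.27 and -1.61 (exact p = 0.125, the smallest it allows, adjusted p = 0.188). Depth limits Sgcd, whose 0 counts give only an upper bound.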
